A study of Homo sapiens with 12 samples.

Results

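How the K700E form of SF3B1 shifted RNA between cytoplasm and nucleus was measured across genes in HEK293T cells, a human embryonic kidney line that carries the SV40 large T antigen. The cells had been transiently transfected for 48 h with a plasmid encoding either SF3B1 WT or SF3B1 K700E, so that the endogenous SF3B1 was present in both groups, and no untransfected or empty-vector group was analysed here. Nuclear and cytoplasmic RNA of each construct gave 4 groups of 3 libraries: WT nucleus, WT cytoplasm, K700E nucleus and K700E cytoplasm. All 12 libraries entered the comparison, and 20394 of 67049 gene IDs passed the filter on low counts. The title of the study names nuclear export of mRNA and the contact of SF3B1 with THOC5 as its subject. The quantity reported for each gene is the log2 cytoplasm-to-nucleus ratio with K700E minus the same log2 ratio with WT, called the change of ratio here. It equals the K700E-against-WT difference in the cytoplasm minus that difference in the nucleus. A negative value means that the gene's RNA lay more on the nuclear side with K700E. Each library was made from the same mass of RNA and is scaled to its own total and by a further factor (TMM). A change shared by all genes is therefore not seen.

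SF3B1 is the largest subunit of SF3b, the part of the U2 snRNP that holds the intron branch point, and K700E is a recurrent amino acid change in blood cancers and other tumours that makes the spliceosome use cryptic 3' splice sites. Spliced mRNA leaves the nucleus after the TREX complex, which holds the THO subunits and the adaptor ALYREF, hands it to the export receptor NXF1. Transcripts that keep an intron are often held in the nucleus, and many mRNAs of splicing factors are known for such detained introns, which let the cell tune the amount of mature message.

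The libraries held 9086743 to 11200562 counts in the nucleus and 13422598 to 18116929 in the cytoplasm, and the biological coefficient of variation (BCV, the relative spread between replicates beyond counting noise) was 0.306. It was 0.408 within WT nucleus, 0.300 within K700E nucleus, 0.258 within K700E cytoplasm and 0.200 within WT cytoplasm. Nuclear libraries 2 of both constructs stood apart, in opposite directions along the GC content of transcripts. Relative to the mean of its fraction, log2 expression climbed by 0.53 for each 10 points of GC in WT nucleus library 2 and fell by 0.40 in K700E nucleus library 2, and the slopes of the other 10 libraries lay between -0.19 and 0.28. The fractions carried their markers: summed MALAT1, NEAT1 and other nuclear RNAs ran from 2692 to 9838 CPM (counts scaled to the library's total) in nuclei and from 83.7 to 144.5 CPM in cytoplasm. Of 10 genes listed for HEK293T, 9 had counts in all 12 libraries and PAX8 had a median of 0, while the T cell gene CD3E was at 0 throughout. Of the 8 genes listed for other cell types, the collagen genes COL1A1 (median 27.1 CPM, up to 139) and COL3A1 (1.18 CPM) and the albumin gene ALB (6.15 CPM, up to 25.4) had counts in all 12 libraries, and the medians of the others were 0.288 CPM or less. CCNL1, SRSF1, DDX5 and LUC7L3, the genes that serve as markers of the comparison, are regulators of splicing and mark no cell type.

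No gene reached the threshold for a change of ratio. With edgeR's quasi-likelihood F test and Benjamini-Hochberg adjustment over 20394 genes, 0 (0%) had an adjusted p under 0.05, and the smallest adjusted p was 0.771. At an unadjusted p under 0.05 the same test gave 464 genes with a higher ratio with K700E (2.28%) and 208 with a lower ratio (1.02%). The split depended on scaling and GC content, being 613 and 142 with scaling by totals alone and 362 and 313 after a correction for GC content. Single libraries moved both counts: without WT nucleus library 1 they were 1035 and 887, without WT nucleus library 2 they were 242 and 182, without WT cytoplasm library 3 they were 725 and 253, without K700E cytoplasm library 3 they were 282 and 156, and without K700E nucleus library 3 they were 505 and 341. The median change of ratio over all genes was 0.05, with a 5th percentile of -0.74 and a 95th of 1.11, and 45.8% of genes had a value below 0. A stricter look at the libraries asked whether all 9 pairings of a K700E cytoplasm with a K700E nucleus library gave a log2 ratio beyond all 9 pairings of WT libraries. That separation held for 154 genes on the higher side (0.755%) and 113 on the lower side (0.554%). DESeq2 called 2 genes higher and 1 lower on the same counts.

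Precision set what could be seen. The median standard error (SE) of the change of ratio was 0.51 over all genes and 0.38 over the 12059 genes that averaged 5 CPM or more, where the 95% interval reached a median of 0.81 log2 units to either side, a 1.75-fold change of the ratio. For 4652 genes (22.8% of all, 38.6% of those at 5 CPM or more) the whole 95% interval lay within 2-fold in either direction. For the remaining genes the interval reached beyond a 2-fold change.

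Values of the change of ratio ran along the GC content of transcripts. Among protein-coding genes, the median change of ratio went from -0.24 in transcripts under 40% GC through -0.17, -0.07, 0.13 and 0.30 in the classes between, each 5 points wide, to 0.57 in transcripts of 60% GC or more. In the lowest class 80.4% of 2120 genes had a negative value, and in the highest class 9.39% of 2193. The course lay mostly in the nucleus: the median K700E-against-WT difference in the nucleus ran from 0.33 to -0.55, whereas in the cytoplasm the class medians stayed between -0.05 and 0.08. Across 10971 protein-coding genes with at least 5 CPM, which share the same 12 libraries and are not independent, the change of ratio correlated with GC at r = 0.65 (rho = 0.65). Leaving out nuclear libraries 2 of both constructs, which were picked because their own slopes along GC were the most extreme, gave r = 0.03 (rho = -0.0024) and class medians between -0.01 and 0.12. Without only WT nucleus library 2 rho was 0.36, without only K700E nucleus library 2 it was 0.42, and without only K700E cytoplasm library 3 it was 0.36. What gave rise to the slopes was not tested. The medians of all lists are also shown, in the plot of list medians, after GC correction and without nuclear libraries 2. The correction removed each library's trend along GC, taken against the mean of both constructs in its fraction. It would also take out a K700E effect that runs along GC, and the rho of 0.06 afterwards follows from its design. Such values are given for some single genes, and genes printed without them may shift too.

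**Figure D1:**
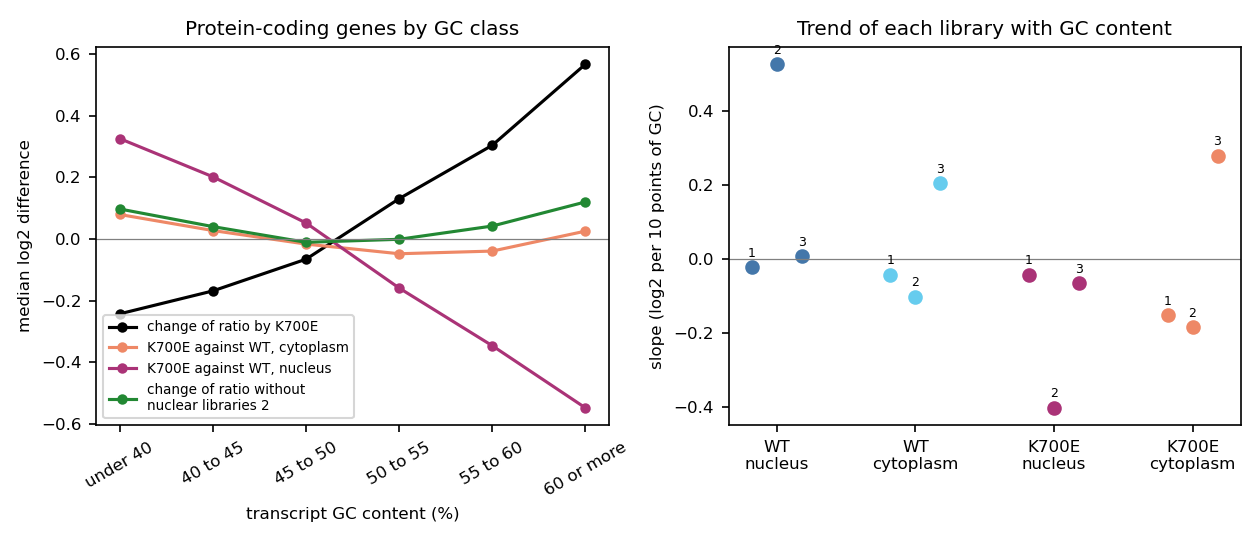
Left: median log2 difference of protein-coding genes in 6 classes of transcript GC content (%), for the change of ratio with all 12 libraries (black), K700E against WT in the cytoplasm (orange) and in the nucleus (purple), and the change of ratio without nuclear libraries 2 (green). Right: slope of each library's log2 expression along GC, in log2 units per 10 points of GC, with replicate numbers beside the points; WT nucleus library 2 stood at 0.53 and K700E nucleus library 2 at -0.40, and the black line on the left climbed from -0.24 to 0.57 while the green line stayed between -0.01 and 0.12.

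Stretches of coding sequence show what these classes look like. LUC7L3 and SRSF1, of low GC, had negative changes of ratio, and KANK3 and HTR6, of high GC, had positive ones. HTR6 stood at 1.48, or 0.89 after GC correction. The genes were picked after their values were seen, as examples from the named genes. Within each gene, the stretch printed is the one whose GC content is nearest to that of the whole transcript. The closeness of the stretch to its transcript is therefore set by that choice. Each line gives 90 bases that lie within a single coding exon, 5' to 3' on the gene's strand, with G and C in capitals, from GENCODE 29 on GRCh38.
LUC7L3: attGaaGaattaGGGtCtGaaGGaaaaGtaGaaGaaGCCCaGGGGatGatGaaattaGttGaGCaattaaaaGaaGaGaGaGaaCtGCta
SRSF1: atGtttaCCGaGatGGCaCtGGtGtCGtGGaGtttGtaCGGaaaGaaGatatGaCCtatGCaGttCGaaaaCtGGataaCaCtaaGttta
KANK3: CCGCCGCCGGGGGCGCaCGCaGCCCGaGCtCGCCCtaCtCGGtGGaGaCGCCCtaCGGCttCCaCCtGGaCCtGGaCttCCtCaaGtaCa
HTR6: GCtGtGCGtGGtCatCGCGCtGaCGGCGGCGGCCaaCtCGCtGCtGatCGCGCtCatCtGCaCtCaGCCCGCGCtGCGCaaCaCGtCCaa
The LUC7L3 bases are chr17:50743706-50743795 on the plus strand, in exon 6 of 10, with 37.8% G or C. Those of SRSF1 are chr17:58005812-58005901 on the minus strand, in exon 3 of 3, with 41.1%. The KANK3 stretch is chr19:8335673-8335762 on the minus strand, in exon 3 of 11, with 70.0%. For HTR6 it is chr1:19665849-19665938 on the plus strand, in exon 1 of 3, with 67.8%. Over the whole transcript the GC content was 37.7% for LUC7L3, 41.2% for SRSF1, 70.5% for KANK3 and 68.0% for HTR6.

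CCNL1, SRSF1, DDX5 and LUC7L3 all had lower cytoplasm-to-nucleus ratios with K700E, by 2.15- to 2.78-fold. Their 95% intervals excluded 0 before adjustment, and the adjusted p was 0.980 each (edgeR). They were given as markers with the comparison, which was chosen with earlier results of these data known. CCNL1, SRSF1 and LUC7L3 are also among the 10 smallest p on the lower side. The shared direction of the markers and their intervals are therefore no separate support. In the fit of all 12 libraries each of these markers had a negative value in the cytoplasm and a positive one in the nucleus, which their choice favours. In the nuclei other than libraries 2, the groups of CCNL1, SRSF1 and DDX5 overlapped. SRSF1 had 440 and 265 CPM with WT against 427 and 271 with K700E. DDX5 had 2277 and 1147 CPM against 2008 and 1576, and CCNL1 had 870 and 622 against 834 and 874. LUC7L3 had 2234 and 2107 CPM with WT against 2486 and 2712 with K700E, without overlap.

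CCNL1 (chromosome 3, 157146508 to 157160760, minus strand) encodes cyclin L1, which works with CDK11 in transcription and splicing. Its level was 870, 516 and 622 CPM in the WT nucleus libraries and 834, 1366 and 874 in K700E nucleus. In the cytoplasm it was 159, 141 and 145 CPM with WT and 102, 106 and 109 with K700E. The cytoplasmic groups did not overlap, all 3 K700E libraries lying below all 3 of WT, while the nuclear groups overlapped. The change of ratio was -1.11 ± 0.33 (SE, edgeR unadjusted p = 0.0039), made of -0.49 in the cytoplasm and 0.61 in the nucleus. It was -0.96 after GC correction and -0.69 without nuclear libraries 2.

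SRSF1 (chromosome 17, 58003360 to 58007346, minus strand) encodes the founding SR protein, which binds exonic enhancers and shuttles between nucleus and cytoplasm. Nuclear levels were 440, 149 and 265 CPM with WT and 427, 556 and 271 with K700E, and overlapped. Cytoplasmic levels were 442, 365 and 329 CPM with WT and 156, 231 and 212 with K700E, with no overlap. SRSF1 went from a ratio on the cytoplasmic side with WT (log2 0.41) to the nuclear side with K700E (log2 -1.07). The change of ratio was -1.48 ± 0.46, or -1.31 after GC correction and -0.91 without nuclear libraries 2, and its library pairings were not fully separated.

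DDX5 (chromosome 17, 64499616 to 64508199, minus strand) encodes p68, a DEAD-box RNA helicase that acts in splicing and transcription. Levels were 2277, 722 and 1147 CPM in WT nucleus and 2008, 1616 and 1576 CPM in K700E nucleus. The nuclear groups overlapped. In the cytoplasm the levels were 889, 826 and 805 CPM with WT and 386, 537 and 473 CPM with K700E, again with no overlap. The change of ratio of -1.18 ± 0.43 became -1.11 after GC correction and -0.92 without nuclear libraries 2. DDX5 overlaps CEP95 on the other strand, and since the use of strand in counting is not given, reads of the pair may not be told apart.

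LUC7L3 (chromosome 17, 50719544 to 50756213, plus strand) encodes a U1 snRNP-associated protein that helps select 5' splice sites. Nuclear levels were 2234, 838 and 2107 CPM with WT and 2486, 2873 and 2712 CPM with K700E, so that every K700E library lay above every WT library. The cytoplasmic levels were 403, 347 and 273 CPM with WT and 285, 234 and 168 CPM with K700E, and overlapped. The change of ratio was -1.22 ± 0.43, or -1.08 after GC correction and -0.84 without nuclear libraries 2.

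**Figure D2:**
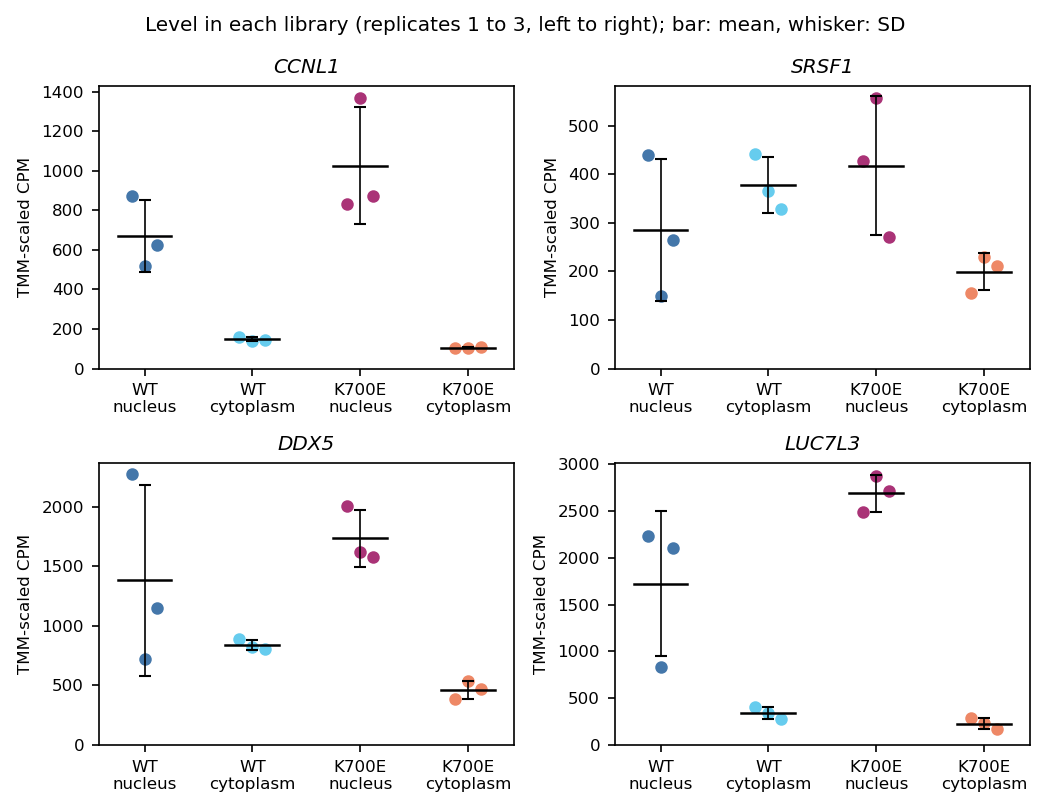
TMM-scaled CPM of CCNL1, SRSF1, DDX5 and LUC7L3 in each of the 12 libraries, with replicates 1 to 3 from left to right, the mean as a bar and the SD as a whisker. The K700E cytoplasm points lie below all WT cytoplasm points for CCNL1, SRSF1 and DDX5, and for LUC7L3 the K700E nucleus points (2486 to 2873) lie above all WT nucleus points (838 to 2234).

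Every tested member of the SR protein family and of the genes known for detained introns had a negative change of ratio, although none passed the adjusted threshold. A negative change does not place the RNA on the nuclear side: with K700E the log2 ratio of SRSF3 was still 1.43. Both lists, like all lists here, were written with earlier results of these data known. SR proteins bind exonic enhancers through RNA recognition motifs and contact other factors through RS domains. Of their genes, 14 of 14 had a negative change of ratio, against 45.8% of all genes tested, with a median of -0.57 against 0.05. Among the 12059 genes at 5 CPM or more, 49.9% were negative and the median was 0.002. Over protein-coding genes at that level, the change of ratio fell with mean CPM (rho = -0.29, or -0.165 after GC correction). The lists were not set against genes of like CPM. At an unadjusted p under 0.05, 4 of 14 were lower (1.02% of all genes) and 0 higher. SRSF1 and SRSF2 stood at -1.48 and -1.03, TRA2A at -1.0 and SRSF11 at -0.70, while SRSF12 at -0.19 and SRSF4 at -0.05 were the closest to 0. In 11 of 14 the cytoplasmic difference was negative and the nuclear difference positive, a pairing found in 18.5% of all genes. With GC correction 13 of 14 were negative (48.1% of all genes) with a median of -0.42, and without nuclear libraries 2 it was 13 of 14 (44.4% of all genes) with -0.34. The median was -0.36 without WT nucleus library 2 alone and -0.86 without WT nucleus library 1. Against the median of their own GC class, 13 of 14 lay lower, by a median of 0.40 log2 units.

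Summed over the 14 SR genes, the cytoplasm held 5963, 5681 and 5284 CPM with WT and 4021, 4488.5 and 4097 CPM with K700E, and every K700E library lay below every WT library. The nucleus held 9186, 6136 and 8052 CPM with WT and 8833, 11570 and 9175 CPM with K700E, and these groups overlapped. TRA2A, which encodes a splicing activator that pairs with SR proteins (chromosome 7, 23504780 to 23532041, minus strand), was among the separated genes. Its cytoplasmic levels were 304, 280 and 257 CPM with WT and 206, 195 and 202 CPM with K700E, without overlap, and its nuclear levels were 379, 406 and 512 CPM against 425, 819 and 624 CPM, with overlap.

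In the list of RBM, LUC7L, DEAD-box and nuclear speckle genes known for detained introns, 26 of 26 genes tested had a negative change of ratio, with a median of -0.54. Of these, 6 had an unadjusted p under 0.05 on the lower side (1.02% of all genes) and 0 on the higher side (2.28%), and 3 were separated on the lower side (0.554%). MAT2A, the S-adenosylmethionine synthetase whose intron is detained when the cofactor is plentiful, stood at -1.31 ± 0.69. OGT, the enzyme that adds O-GlcNAc, stood at -0.72 ± 0.30, and OGA, which removes it, at -0.37 ± 0.30. The DDX5 paralog DDX17 (chromosome 22, 38483440 to 38507660, minus strand) stood at -1.03 ± 0.34, with 665, 596 and 515 CPM in WT cytoplasm against 310, 467 and 391 in K700E cytoplasm, without overlap. In the nucleus DDX17 had 2789, 1454 and 2504 CPM with WT and 2925, 3000 and 3109 with K700E, again without overlap. The speckle scaffolds SON and SRRM2 were closest to 0, at -0.15 ± 0.28 and -0.09 ± 0.31. GC correction left 26 of 26 negative with a median of -0.38, and leaving out nuclear libraries 2 left 24 of 26 with -0.30. All 26 lay below the median of their own GC class, and 18 of 26 paired a negative cytoplasmic with a positive nuclear value (18.5% of all genes).

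**Figure D3:**
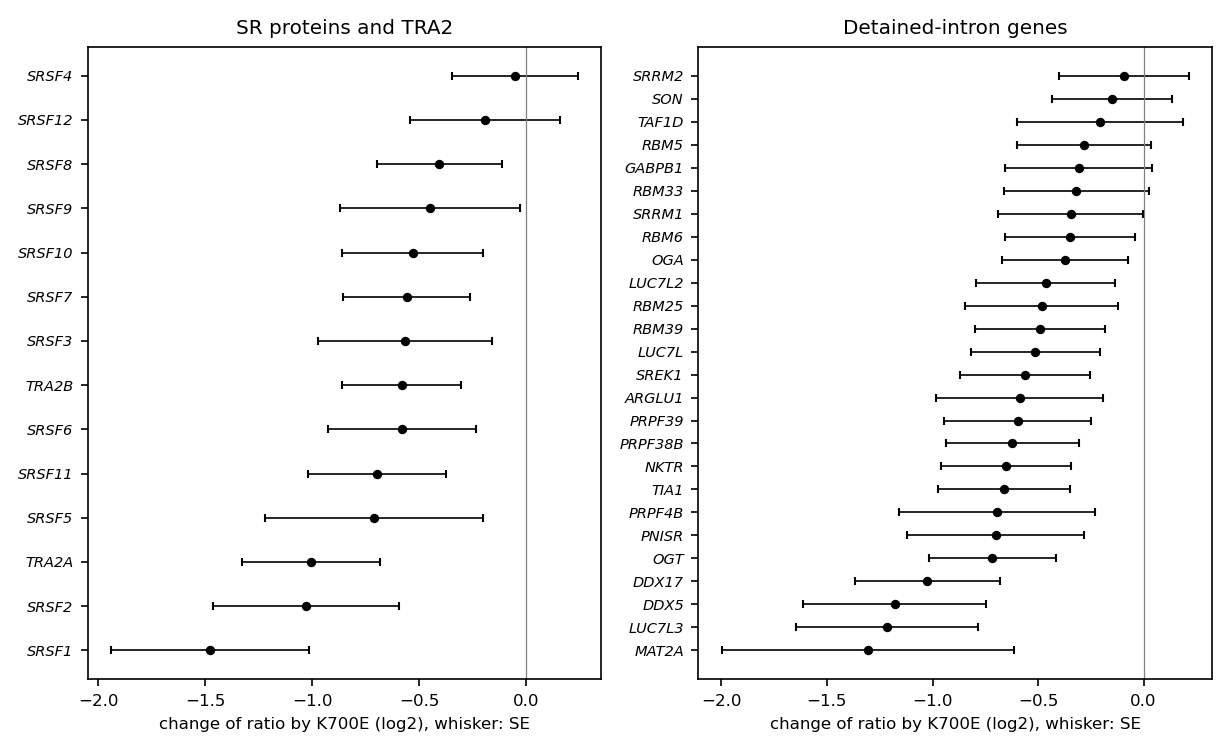
Change of ratio (log2, K700E minus WT) with its SE for the 14 SR and TRA2 genes (left) and the 26 genes known for detained introns (right). All 40 points lie left of 0, from -0.05 (SRSF4) to -1.48 (SRSF1) on the left and from -0.09 (SRRM2) to -1.31 (MAT2A) on the right.

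The remaining splicing lists lay nearer to the bulk of genes. Of 16 CLK and SRPK kinases, which phosphorylate SR proteins, and transcription cyclins, 11 were negative with a median of -0.16, but without nuclear libraries 2 the median was 0.02 with 6 negative. CCNL1 was the only member with an unadjusted p under 0.05, and its paralog CCNL2 stood at -0.14 ± 0.29. Among hnRNP and related RNA-binding proteins 18 of 23 were negative (median -0.22, or -0.05 without nuclear libraries 2 and -0.53 without WT nucleus library 1), led by HNRNPD, which encodes the AU-rich-element binder AUF1, at -0.95 ± 0.36 and HNRNPDL at -0.78 ± 0.35, which were -0.51 and -0.31 without nuclear libraries 2. For SF3a, SF3b and U2 factors 15 of 22 were negative, with a median of -0.21 that was -0.17 without nuclear libraries 2, and 0 of 22 had an unadjusted p under 0.05. SUGP1, a G-patch protein whose binding K700E is known to weaken, had 0.76 ± 0.41, but 0.37 after GC correction and 0.22 without nuclear libraries 2. The helicase DHX15 had -0.60 ± 0.36, or -0.12 without nuclear libraries 2. Of 15 genes known to be mis-spliced with mutant SF3B1, 7 were negative with a median of 0.05, the value of all genes, and the 2 with the smallest p were DVL2 at 0.56 ± 0.35 (0.17 after GC correction) and MAP3K7 at -0.46 ± 0.34 (-0.11 without nuclear libraries 2). Counts per gene do not tell spliced from mis-spliced RNA.

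SF3B1 itself (chromosome 2, 197389784 to 197435091, minus strand) was counted from the plasmid and the endogenous gene together, as far as its coding sequence goes. It had 2479, 1070 and 1180 CPM in WT nucleus and 1918, 1024 and 1857 CPM in K700E nucleus. In the cytoplasm it had 10075, 10010 and 8206 CPM with WT and 6917, 8294 and 8560 CPM with K700E. The groups overlapped in both fractions, and the change of ratio was -0.27 ± 0.43 (95% interval -1.18 to 0.64). Gene counts cannot show which allele the RNA carried.

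THO, TREX and cap-binding genes, whose products load the export machinery onto mRNA, had no common direction in their own RNA. Of 20 genes, 12 were negative and the median was -0.04, which became 0.07 when libraries were scaled by their total alone and -0.16 after GC correction. None had an unadjusted p under 0.05, and 0 were called by DESeq2. THOC5, the THO subunit named with SF3B1 in the study's title (chromosome 22, 29505879 to 29555216, minus strand), had 52.2, 76.1 and 56.8 CPM in WT nucleus and 47.7, 46.0 and 62.6 CPM in K700E nucleus. Its cytoplasmic levels were 117, 108 and 132 CPM with WT and 118, 110 and 129 CPM with K700E, and the groups overlapped in both fractions. The change of ratio of THOC5 was 0.24 ± 0.30 with a 95% interval of -0.38 to 0.86, and -0.02 without nuclear libraries 2.

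The other THO subunits spread over both signs. THOC1 stood at -0.50 ± 0.29, THOC2, the scaffold, at -0.44 ± 0.33 and THOC7 at -0.39 ± 0.34, and without nuclear libraries 2 they stood at -0.23, -0.08 and -0.11. On the other side lay THOC3 at 0.15 ± 0.45 and THOC6 at 0.58 ± 0.57, the latter -0.08 without nuclear libraries 2. The adaptor ALYREF had -0.05 ± 0.40 (0.08 with scaling by totals alone) although its level was lower with K700E in both fractions, by 0.50 in the cytoplasm and 0.45 in the nucleus on the log2 scale. NXF1, the receptor, had the same form, with -0.52 in the cytoplasm and -0.47 in the nucleus. Its change of ratio was -0.04 ± 0.34 (0.04 with scaling by totals alone). After GC correction ALYREF stood at -0.44 and NXF1 at -0.22. Without nuclear libraries 2 they stood at -0.39 and -0.33, so neither value was steady near 0. DDX39B, the TREX helicase also called UAP56, had a mean of only 0.680 CPM and an SE of 1.25, and how reads of near-identical copies were counted is not given.

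Of 21 genes of export receptors, the TREX-2 complex and the cytoplasmic face of the pore, 16 were negative with a median of -0.12. NUP153, a nucleoporin of the nuclear basket, stood at -0.73 ± 0.36 and the small TREX-2 subunit SEM1 at -0.93 ± 0.48, both with a 95% interval that includes 0. Without nuclear libraries 2 they were at -0.43 and -0.39. The protein export receptor XPO1 was at -0.12 ± 0.30 and its partner RAN at 0.02 ± 0.30. Exon junction complex and nonsense-mediated decay genes had 13 of 19 negative values with a median of -0.13, and CASC3, a core exon junction protein, had -0.53 ± 0.29, or -0.25 without nuclear libraries 2. In neither list did a gene have an unadjusted p under 0.05.

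RNAs and factors of the nucleus lay on both sides of 0. MALAT1, the long RNA of nuclear speckles, had 2108, 4632 and 4428 CPM in WT nucleus and 1670, 8209 and 4739 in K700E nucleus. With 40.7, 83.9 and 32.1 CPM in WT cytoplasm and 76.9, 76.6 and 36.7 in K700E cytoplasm, its change of ratio was -0.11 ± 0.67 and took the other sign in several alternatives. NEAT1, the paraspeckle scaffold, stood at 0.25 ± 0.37. Of 8 nuclear-retained long non-coding RNAs, 4 were negative, with a median of 0.00. After GC correction 2 of 8 were negative with a median of 0.26, and without nuclear libraries 2 it was 2 of 8 with 0.27. Of 19 genes of the nuclear exosome and its adaptors 12 were negative (median -0.06), and EXOSC3, a cap subunit of the exosome, was separated at -0.71 ± 0.30. Cleavage and polyadenylation factors had 12 of 17 negative values and a median of -0.23, which was -0.31 after GC correction and -0.41 without K700E nucleus library 3. FIP1L1, a subunit of the poly(A) signal recognition complex, was separated at -0.73 ± 0.28: it had 56.3, 44.7 and 57.8 CPM in WT cytoplasm against 41.2, 42.0 and 43.7 with K700E, and 59.8, 54.0 and 55.9 CPM in WT nucleus against 77.7, 83.7 and 64.0 with K700E.

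Host genes of small nucleolar RNAs mostly had a positive change of ratio. Their spliced RNAs are mostly non-coding, and many are known to be degraded in the cytoplasm by translation-linked decay. Of 17 tested, 13 had a positive change of ratio, as did 11051 of all 20394 genes tested. The median of the host genes was 0.32, against 0.05 for all genes. It was 0.32 after GC correction and 0.40 without nuclear libraries 2, but 0.14 without WT nucleus library 1. At an unadjusted p under 0.05, 2 were higher (2.28% of all genes were) and 0 lower. SNHG7 had 52.0, 53.6 and 78.6 CPM in WT cytoplasm and 88.9, 53.8 and 116 in K700E cytoplasm. Its nuclear values were 65.0, 98.3 and 59.1 CPM with WT and 57.7, 46.2 and 39.9 with K700E, without overlap, and its change of ratio was 1.11 ± 0.40, or 0.55 after GC correction. ZFAS1 stood at 0.75 ± 0.36 (0.46 after GC correction) and GAS5 at 0.37 ± 0.40.

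Mitochondrially encoded mRNAs, which are made and translated inside mitochondria and serve as a marker of what the cytoplasmic fraction carries, had the lowest median of all lists. All 13 were negative, with a median of -0.93, and 2 of 13 had an unadjusted p under 0.05 (1.02% of all genes on the lower side). After GC correction the median was -0.83 and 0 of 13 had such a p, and without nuclear libraries 2 the median was -1.02. Their summed level in WT cytoplasm was 18783, 13763 and 4473 CPM, against 6108, 7162 and 7134 CPM in K700E cytoplasm. In the nucleus the sum was 1207, 1175 and 907 CPM with WT and 969, 1021 and 1245 CPM with K700E. WT cytoplasm library 3 lay below all K700E cytoplasm libraries while its other 2 libraries lay above them, so the groups overlapped. The median was -0.48 without WT cytoplasm library 1 and -1.32 without library 3. The yield of mitochondria in the fraction was not measured, and its part in this value was not tested.

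Genes for proteins of the cytoplasm gave smaller values. For comparison, 11051 of all 20394 genes tested had a positive value, and the median of all was 0.05. Cytosolic ribosomal protein genes, whose short mRNAs are among the most cytoplasmic, had 58 of 78 positive values with a median of 0.15 (0.19 without nuclear libraries 2, and -0.06 without K700E nucleus library 3), and 0 of 78 had an unadjusted p under 0.05. RPL3 was at 0.75 ± 0.38, but at 0.42 without WT nucleus library 2 and 0.41 without both nuclear libraries 2. Nuclear-encoded respiratory chain genes split into 38 negative and 35 positive with a median of -0.01. Proteasome subunits had 22 of 32 negative values with a median of -0.14, which was 0.04 without K700E nucleus library 1 and -0.30 without K700E nucleus library 3. The lid subunit PSMD6 stood at -0.78 ± 0.32, or -0.43 without nuclear libraries 2. Chaperones of the HSP70, HSP90 and J-protein families had 12 of 17 negative values (median -0.19, or 0.00 without nuclear libraries 2). Tubulins were 5 of 15 negative with a median of 0.08 that was -0.19 after GC correction, and translation factors 28 of 59 with 0.03 that was 0.12 without nuclear libraries 2. EIF4EBP1, the repressor of cap-dependent initiation, stood at 1.44 ± 0.62, but at 0.70 after GC correction and 0.49 without WT nucleus library 2.

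Lists of stress response and cell cycle genes had medians between -0.13 and 0.35, and several of them changed sign with the processing. Among all 20394 genes tested 11051 were positive. Immediate early genes had 14 of 19 positive values with a median of 0.35, which was -0.02 after GC correction. Glycolysis and hypoxia genes had 15 of 22 positive values with a median of 0.21, or 0.03 after GC correction, and the enzymes PGK1 and ENO2 pointed opposite ways at -0.69 ± 0.32 and 0.68 ± 0.32 (-0.34 and 0.49 without nuclear libraries 2). Targets of ATF4 and the unfolded protein response had a median of 0.01, which was 0.34 without K700E nucleus library 2. The median of p53 targets was -0.11, or 0.03 without nuclear libraries 2. Cholesterol synthesis genes had -0.07, but 0.14 without K700E nucleus library 1, 0.09 with the filter of 1 CPM in all libraries and 0.07 without nuclear libraries 2. Heme and iron genes had 0.02, or 0.08 after GC correction, and DNA replication genes 0.01, or -0.02 without nuclear libraries 2. For mitosis the median of -0.13 was 0.00 after GC correction and 0.05 without nuclear libraries 2, and for double-strand break repair -0.05 became 0.04 in both forms. Replication-dependent histones had 0.12, but -0.05 in both of those forms, -0.34 without WT nucleus library 2 and -0.31 without K700E cytoplasm library 1. The 425 zinc-finger ZNF genes, many of them of low GC, had 58.6% negative values with a median of -0.06. None of these lists held a gene called after adjustment.

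**Figure D4:**
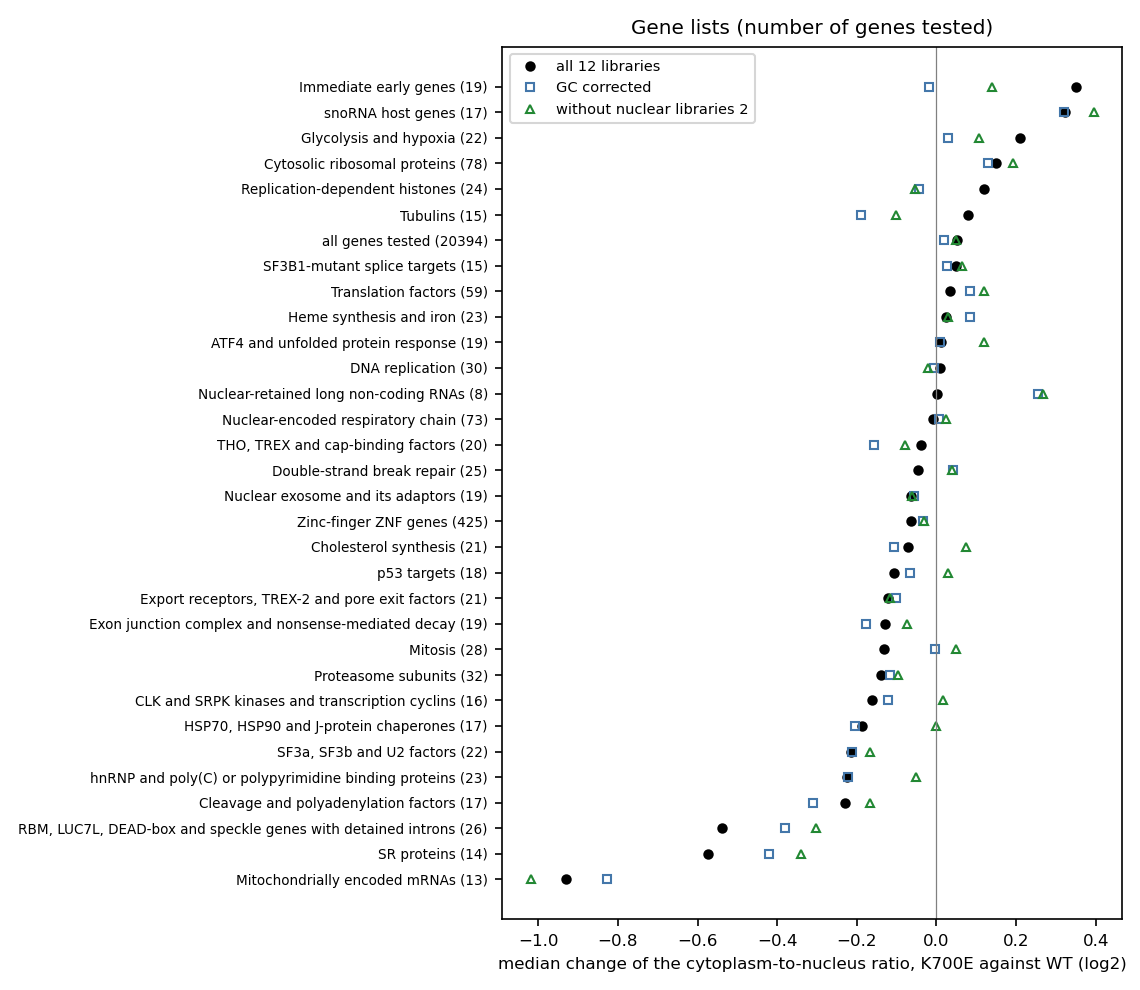
Median change of ratio (log2, K700E minus WT) of each gene list, with the number of genes tested in brackets: all 12 libraries (black), after GC correction (blue squares) and without nuclear libraries 2 (green triangles). SR proteins, detained-intron genes and mitochondrially encoded mRNAs lie between -0.30 and -1.02 in all 3 forms, and all genes tested lie at 0.05, 0.02 and 0.05.

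Of genes with an official symbol that averaged 5 CPM or more, the 10 with the smallest p on each side were DLG4, PMM1, JTB-DT, HILPDA, KCNJ4, HTR6, KANK3, PROCR, TSC22D3 and GNPTG with a higher ratio, and RUFY1, MTURN, KIF15, CCNL1, SRSF1, TRA2A, DDX17, DLEU2, HMGN3 and LUC7L3 with a lower ratio. All 20 had an adjusted p of 0.980 (edgeR). On the lower side CCNL1, SRSF1, TRA2A, DDX17 and LUC7L3 belong to the splicing lists. Those lists were written with earlier results of these data known, and CCNL1, SRSF1 and LUC7L3 are markers given with the comparison. How many list members stand here is therefore no result. For 8 of the 10 higher genes a higher cytoplasmic level came with a nuclear level lower by at least 0.43 log2 units with K700E. The genes were chosen by the difference between both fractions, so opposite signs are favoured by that choice and are no separate result.

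TSC22D3, the glucocorticoid-induced leucine zipper gene (chromosome X, 107713221 to 107777342, minus strand), had 320, 406 and 447 CPM in WT cytoplasm and 868, 706 and 817 in K700E cytoplasm, without overlap. Its nuclear levels were 113, 90.3 and 163 CPM with WT and 124, 133 and 128 with K700E, so its change of ratio of 0.96 ± 0.32 came from the cytoplasm (1.03) and not from the nucleus (0.07). HILPDA, a hypoxia-induced lipid droplet gene (chromosome 7, 128455849 to 128458418, plus strand), had the same form. It had 54.1, 92.3 and 82.7 CPM in WT cytoplasm and 139, 214 and 323 in K700E cytoplasm, with 18.5, 58.3 and 51.8 CPM in WT nucleus and 33.6, 35.0 and 49.6 in K700E nucleus, and a change of ratio of 1.68 ± 0.52.

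DLG4 encodes the synaptic scaffold PSD-95 (chromosome 17, 7187169 to 7219841, minus strand) and overlaps ACADVL on the other strand. Its cytoplasmic level was 3.91, 5.48 and 6.6 CPM with WT and 12.8, 9.13 and 14.5 with K700E. The change of ratio of DLG4 was 1.59 ± 0.44, or 1.11 without nuclear libraries 2. PMM1, a phosphomannomutase gene (chromosome 22, 41576894 to 41589890, minus strand), had 20.9, 45.7 and 27.4 CPM in WT nucleus against 21.2, 14.5 and 16.7 with K700E. In the cytoplasm PMM1 had 13.6, 17.5 and 21.1 CPM against 29, 21.9 and 34.3. Its change of ratio was 1.53 ± 0.42, or 1.04 without nuclear libraries 2. KANK3, of 70.5% GC, stood at 1.71 ± 0.56 and had 31.6 CPM in WT nucleus library 2 against 11.1 and 12 in the other WT nuclei, and its value was 0.87 after GC correction. KCNJ4, a potassium channel gene of 65.5% GC, stood at 2.24 ± 0.72 and showed the same single high library, 19.8 CPM against 4.54 and 7.37, with 1.48 after GC correction.

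RUFY1, which encodes an endosomal adaptor (chromosome 5, 179550558 to 179610026, plus strand), had the smallest p on the lower side, with a change of ratio of -2.77 ± 0.61. It had 4.71, 16.4 and 7.26 CPM in WT cytoplasm against 2.48, 2.17 and 3.06 with K700E, and 3.68, 4.03 and 4.0 CPM in WT nucleus against 5.19, 7.86 and 10.1 with K700E. Neither pair of groups overlapped, and DESeq2 gave an adjusted p of 0.0245. RUFY1 overlaps RUFY1-AS1 on the other strand. KIF15, a mitotic kinesin gene (chromosome 3, 44761717 to 44873376, plus strand), stood at -2.45 ± 0.73 with 4.09, 14.9 and 14.6 CPM in WT cytoplasm and 4.79, 2.79 and 7.83 in K700E cytoplasm. MTURN, a neural differentiation gene (chromosome 7, 30134810 to 30162762, plus strand), stood at -1.22 ± 0.35 with a nuclear level of 34.5, 23.8 and 39.3 CPM against 44.7, 80.1 and 54.2. DLEU2, the host transcript of MIR15A and MIR16-1, stood at -1.08 ± 0.38 and overlaps several genes on the other strand. Without nuclear libraries 2 MTURN stood at -0.77 and DLEU2 at -0.67.

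UQCRC2, a core subunit of respiratory complex III (chromosome 16, 21952660 to 21983660, plus strand), had a mean of 4.26 CPM and the smallest adjusted p among genes with a symbol (0.771), and DESeq2 called it at an adjusted p of 0.00918. It had 8.06, 5.09 and 14.6 CPM in WT nucleus and 1.36, 1.30 and 1.05 in K700E nucleus, without overlap. In the cytoplasm it had 2.85, 3.16 and 2.42 CPM against 3.94, 2.09 and 5.20. The change of ratio was 3.15 ± 0.64, nearly all from the nucleus (-2.75). How reads of near-identical copies were counted is not given, as for DDX39B, so the level of UQCRC2 and its change are uncertain.

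**Figure D5:**
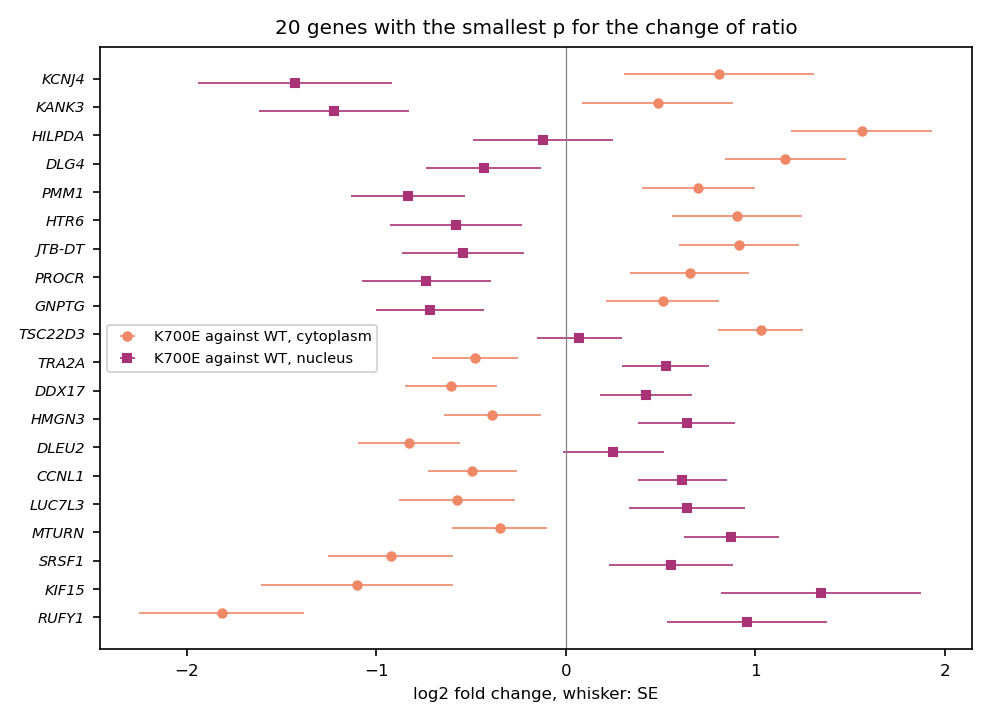
K700E-against-WT log2 fold change in the cytoplasm (orange circles) and in the nucleus (purple squares), with SE, for the 20 genes with the smallest p for the change of ratio. In the lower 10 genes every cytoplasmic value is negative and every nuclear value positive, a pattern favoured by how the genes were chosen. Among the upper 10, TSC22D3 (1.03 and 0.07) and HILPDA (1.56 and -0.12) differ mainly in the cytoplasm.

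Exon number and transcript length went with smaller differences than GC content did. Over protein-coding genes by number of exons, the class medians lay between -0.02 for genes of 1 exon and 0.04 for genes of 5 to 9 exons. By transcript length they went from 0.15 at up to 1000 bases and 0.17 between 1000 and 2000 bases to -0.08 above 8000 bases, and their GC content went from 54.2% to 43.4% along the same classes. After GC correction the length classes lay between -0.03 and 0.01. Genes of 1 exon then had a median of -0.18, and the other exon classes lay between -0.05 and 0.01. Over protein-coding genes at 5 CPM or more, the change of ratio had a rho of -0.19 with transcript length, -0.21 with gene span and -0.29 with mean CPM. By RNA type, protein-coding genes had a median of 0.03, long non-coding RNAs 0.09, pseudogenes 0.14 and small nuclear or nucleolar RNAs 0.13.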

How the data were processed

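Nuclear and cytoplasmic RNA of transfected HEK293T cells was sequenced in 12 libraries. The authors deposited raw counts per gene for each library, and the submitters' processing notes name HISAT2 and DESeq. For versions, counting program, use of strand, genome build and annotation the entry is: not given in the sources used here. Groups come from the sample titles, 3 libraries each. Nothing says that replicates are separate cultures, so p-values cover the spread of these libraries alone, and that spread may be technical. No pair of libraries agreed within sampling noise (chi-square per degree of freedom 7.76 to 75.4).

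IDs were matched without version to symbols (60463 of 67049) and to GENCODE 29 on GRCh38 (58396), from which position, type and the length, exons and GC content of the longest basic transcript were taken. The interaction was tested in R 4.3.3 with edgeR 4.0.16 (quasi-likelihood F test, 1 term per group, all 12 libraries, TMM scaling, filterByExpr with minimum count 10 and total 15, prior count 2), adjusted by Benjamini-Hochberg over all genes, with a threshold of 0.05. SE is the unshrunken log2 value divided by the root of F. Levels are TMM-scaled CPM, except those of the cell type genes, which are scaled by library totals alone. The GC correction removed, within each fraction, a spline trend of each library's log2 CPM on transcript GC through offsets. Alternatives were DESeq2 1.42.0, limma 3.58.1 (voom), other scalings and filters, replicate blocks, a prior count of 0.5 and leaving out each library. Leaving out nuclear libraries 2 was chosen after seeing the data. The procedure was tested on simulated data.

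The comparison, its 4 markers and the gene lists were chosen with earlier results of these data known. Lists defined by a name pattern were limited to protein-coding genes after the files were seen, because pseudogenes had matched. Named genes were the 4 markers, SF3B1, THO genes, ALYREF, NXF1, MALAT1, NEAT1, the 10 smallest p per direction among genes with a symbol and at least 5 CPM, and the 2 smallest p per list. Other list members are named with their values as examples and were chosen after these were seen. Not every named list member is printed. Lists received counts and medians, with no test.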

Additional observations from a re-analysis of the deposited data

How the results depend on the processing

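Calls after adjustment stayed at 0 in both directions except in 3 alternatives. Without a filter beyond 1 count, edgeR called 24 genes higher and 7 lower, HILPDA (1.61), RUFY1 (-2.82), KIF15 (-2.52) and UQCRC2 (3.09) among them. Of those 31, 27 were also among the genes tested with the filter, and 9 had a group with 10 counts or fewer. Many of the 31 were IDs with no symbol and no matched gene type. DESeq2 called 2 higher and 1 lower: UQCRC2 (3.28), an ID with no symbol (2.81) and RUFY1 (-2.91). Without K700E cytoplasm library 2, NSF was called higher (4.69, edgeR adjusted p 0.0404), and leaving out any single library gave 0 to 1 higher and 0 lower calls. The cause was not tested.

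Counts at an unadjusted p under 0.05 (464 higher, 208 lower) were 962 and 516 without the filter, 228 and 120 with at least 1 CPM in all 12 libraries, 613 and 142 with library size alone, 362 and 313 after GC correction, 289 and 172 with limma voom, and 196 and 151 without nuclear libraries 2. Leaving out single libraries gave 242 to 1035 higher and 149 to 887 lower, both highest without WT nucleus library 1 (1035 and 887). The higher count was also 242 without WT nucleus library 2, 725 without WT cytoplasm library 3 and 282 without K700E cytoplasm library 3, and the lower count was 341 without K700E nucleus library 3.

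Replicate numbers were not taken to pair the libraries, since not every same-numbered pair correlated above 0.1 in its deviations from group means. Within a construct the 6 pairs of nucleus and cytoplasm lay between -0.37 and 0.22, with 3 above 0.1. Across constructs the 12 same-numbered pairs lay between -0.49 and 0.61 with a median of 0.11 and 6 above 0.1. The highest was cytoplasm 3 of WT with cytoplasm 3 of K700E. For the 24 pairs of different numbers the median was -0.05. Deviations from group means cancel out within a group, so both medians are tied to each other and their contrast cannot decide on pairing. With a replicate block by construct and number 283 genes were higher and 163 lower at an unadjusted p under 0.05, with the block by number alone 429 and 193, and with GC correction and the block 239 and 259. No block gave a call after adjustment.

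Signs turned for several genes, of which THOC6 (0.58) and TUBA3D (-0.78) were not close to 0 with all libraries. MALAT1 was 0.047 with library size alone, 0.16 and 0.085 with the replicate blocks by number and by construct and number, 0.23 after GC correction, 0.33 with GC correction and block, 0.13 with voom and 0.31 without nuclear libraries 2. NXF1 (0.040) and ALYREF (0.079) turned with library size alone, and THOC6 (-0.081) and THOC5 (-0.022) without nuclear libraries 2. Over the single libraries left out, THOC3 ranged from -0.29 to 0.40, NXF1 from -0.26 to 0.14, MALAT1 from -0.52 to 0.49, ALYREF from -0.45 to 0.16 and TUBA3D from -1.14 to 0.19. CCNL1 (-1.35 to -0.85), SRSF1 (-1.94 to -1.17), DDX5 (-1.75 to -0.87) and LUC7L3 (-1.45 to -0.89) stayed negative, each least so without a nuclear library 2. The median of all genes was 0.15 with library size alone. Over all genes the 95% interval reached a median of 2.12-fold to either side, and larger values also failed the adjustment; the parts of depth and of replicate spread in this were not told apart.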
